A study of Mus musculus with 6 samples.

Results

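Transcript levels of 10 genes that platelets and megakaryocytes need to build secretory granules and to release them were examined: Nbeal2, Vps33b, Vps16, Hps1, Hps4, Slc35d3, Vamp8, Stxbp2, Unc13d and Plek. They were chosen by name, with earlier results of these data known, and found through the gene symbol that the platform annotation gives each probe. Of the 10 genes, 8 had at least 1 named probe (11 probes in all, among 15967 genes with a named probe), and no probe was annotated to Nbeal2 or Unc13d. All 11 probes passed the detection filter and were tested.

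RNA came from C57BL/6 mouse bone marrow cells carrying CD41 and c-kit, megakaryocyte progenitors, kept 3 days in thrombopoietin after sorting. The wild-type group (SRF wt, 3 arrays) and the knockout group (SRF ko, 3 arrays) differed in Srf, which encodes serum response factor and was deleted by Cre recombinase under the promoter of the megakaryocyte gene Pf4. The series design counts 3 mice of each genotype, but no label links an array to one mouse. A p-value here therefore reflects only how much these 6 samples vary, which may be technical. Nor do they say whether the wild-type animals carried Cre. Each sample was hybridised to 1 single-colour bead array, and between 9801 and 10364 of 24611 probes were detected per array.

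Srf lay at log2 intensities of 12.31, 11.89 and 11.98 in wild-type replicates 1 to 3 and at 7.35, 7.56 and 7.20 in knockout replicates 1 to 3, a difference of -4.69 (SE 0.17, limma adjusted p = 5.4e-05), so the genotype labels held on every array. All 10 megakaryocyte markers on the array, of 12 listed, were detected in all 6 samples, with a mean log2 intensity of 12.47, 12.22 and 12.20 in wild-type replicates 1 to 3 and 12.79, 12.48 and 12.44 in the knockout. Their summed intensities overlapped, at 111960, 101092 and 91309 in the wild-type and 105464, 94505 and 97904 in the knockout. Markers of other blood cells differed within the wild-type group. The mast cell and basophil list (16 genes) summed to an intensity of 6955 in wild-type replicate 1, 22013 and 25132 in replicates 2 and 3, and 6911 to 7942 in the knockout. Of its genes 3, 9 and 9 were detected in the wild-type and 4 or 5 in the knockout. The list includes Kit, which encodes the sort antigen c-kit, so its sum is not of mast cell transcripts alone. Kit lay at 10.15, 11.53 and 11.67 in the wild-type and at 9.27, 10.36 and 10.52 in the knockout. Cpa3, by its brighter probe, lay at 6.62, 12.64 and 12.88 in the wild-type and at 8.21, 7.17 and 8.09 in the knockout. The granulocyte list (14 genes on the array) summed to 2023 in wild-type replicate 1, 48280 and 57662 in replicates 2 and 3, 29715 in knockout replicate 1, and 1747 and 2886 in knockout replicates 2 and 3. The monocyte and macrophage list (8 genes on the array) followed the same split, at 2212, 7034 and 8817 in wild-type replicates 1 to 3 and 6121, 2577 and 2785 in knockout replicates 1 to 3. The lymphocyte list (10 genes) summed to 768, 2743 and 2838 in the wild-type and 915 to 1226 in the knockout. The erythroid list (10 genes) summed to 6476, 9783 and 9933 in the wild-type and 9937, 6904 and 6867 in the knockout. By mean log2 intensity it stood at 6.94, 7.88 and 7.89 in the wild-type and at 7.02, 6.93 and 6.96 in the knockout. Few genes of these lists were detected: 2 to 4 monocyte and macrophage genes, 3 or 4 lymphocyte genes and 5 or 6 erythroid genes an array. In RNA from bulk cultures, fewer cells of a type and less RNA per cell cannot be told apart.

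Platelets carry alpha granules, which hold adhesive proteins and growth factors, and dense granules, which hold nucleotides and serotonin. Both are assembled in the megakaryocyte from endosomal compartments. Proteins that act there include tethering proteins (Vps33b, Vps16), the BEACH family protein Nbeal2 and sorting complexes that are faulty in Hermansky-Pudlak syndrome (Hps1, Hps4). On activation, a granule is docked and primed by Munc13 and Munc18 proteins (Unc13d, Stxbp2) and fused with the plasma membrane by SNARE proteins such as Vamp8.

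None of the 8 measured genes passed the test between knockout and wild-type (limma with Benjamini-Hochberg adjustment over 9403 probes, adjusted p from 0.32 to 0.86), where 0.160% of all 6869 tested genes passed. At an unadjusted p under 0.05 there were 3 of 8 (Stxbp2, Hps4 and Vps33b, each higher in the knockout), against 12.9% of all genes in either direction and 6.59% upward. Without wild-type replicate 1 the count was also 3, with Plek in place of Vps33b, and without any other single array only Stxbp2 was left. The knockout mean was the higher for 7 of 8 genes, against 49.0% of all genes, and the median difference was 0.23 on the log2 scale against -0.01 over all genes. In 4 of the 8 (Stxbp2, Hps4, Vps33b and Hps1) every knockout array lay above every wild-type array, against 8.69% of all genes, and in none did every knockout array lie below. Differences ran from -0.06 to 0.44, and the highest upper limit of their 95% intervals corresponded to 1.74-fold. With wild-type replicates 2 and 3 left out, the knockout mean was higher for 5 of 8 genes, the median difference was 0.09 and none of the 8 had an unadjusted p under 0.05. The 8 genes were chosen with earlier results of these data known, which limits the comparison with all genes. The megakaryocyte marker list also leaned upward by mean log2 intensity. It stood at 12.47, 12.22 and 12.20 in the wild-type and at 12.79, 12.48 and 12.44 in the knockout. Among markers of that list taken singly, Itga2b stood at a difference of 0.47 (SE 0.13, limma adjusted p = 0.32) and Pf4 at 0.33 (SE 0.16). For both, every knockout array lay above every wild-type array. Itgb3 (0.49, SE 0.23) and Gp9 (0.24, SE 0.15) were higher by mean, with overlapping groups. An upward lean was thus not particular to the granule genes. The part of the megakaryocyte marker levels in the differences of the 8 genes was not tested.

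**Figure D1:**
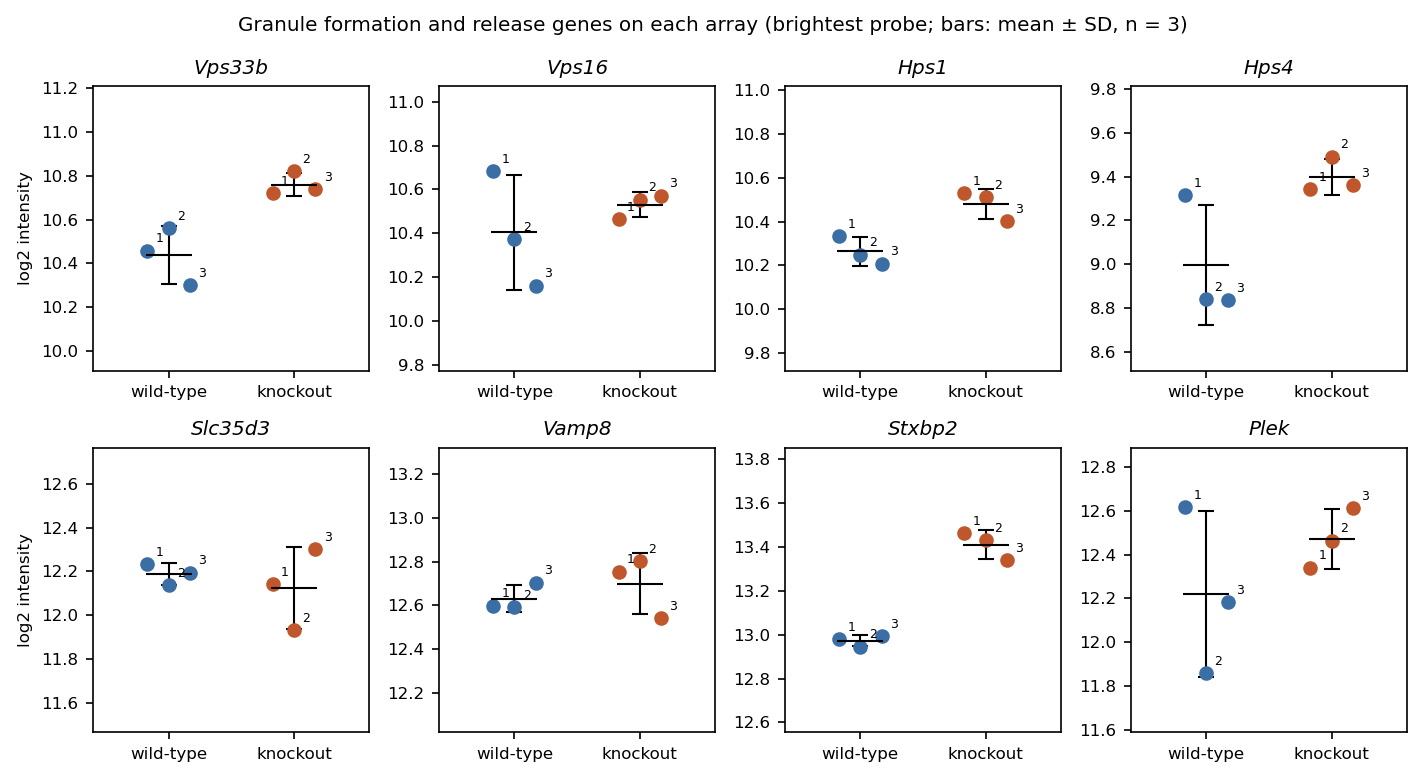
Log2 intensity (y axis, 1 panel per gene, each spanning the same range of log2 units) of the brightest probe of the 8 genes on the 3 wild-type and 3 knockout arrays, with the replicate number beside each point and bars for mean ± SD (n = 3). The groups stand apart for Vps33b, Hps1, Hps4 and Stxbp2 and overlap for Vps16, Slc35d3, Vamp8 and Plek. Levels of different panels cannot be compared, since probes differ in brightness.

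The tethering genes come first in the making of a granule. Vps33b belongs to the Sec1/Munc18 family and, with its partner Vipas39, is needed for alpha granules. It lay at 10.46, 10.56 and 10.30 in wild-type replicates 1 to 3 and at 10.72, 10.82 and 10.74 in the knockout. The knockout arrays were all above the wild-type ones, the nearest pair being knockout replicate 1 and wild-type replicate 2. The difference was 0.32 (SE 0.14, 95% interval 0.00 to 0.64, 1.25-fold, adjusted p = 0.36). Vipas39, looked up as its known partner after values were seen, stood at a difference of 0.10 (SE 0.16, adjusted p = 0.78).

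Vps16 is a core subunit of the HOPS and CORVET tethers, in which it pairs with Vps33a. Its brightest probe lay at 10.68, 10.37 and 10.16 in the wild-type and at 10.46, 10.55 and 10.57 in the knockout. Wild-type replicate 1 was the highest of the 6 arrays and wild-type replicate 3 the lowest, so the knockout fell inside the wild-type range. The difference was 0.12 (SE 0.17, adjusted p = 0.74), and the other 2 Vps16 probes gave 0.25 and 0.11. Vps33a, among the tethering genes of smallest p, lay at 7.84, 7.50 and 7.03 in the wild-type and at 8.15, 7.96 and 7.88 in the knockout. Its arrays did not overlap between the groups, and the difference of 0.54 (SE 0.22) did not pass (adjusted p = 0.35). Leaving out wild-type replicates 2 and 3 gave 0.16 (adjusted p = 1.00).

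Hps1 and Hps4 form the complex BLOC-3, which activates the small GTPases Rab32 and Rab38 on organelles related to lysosomes, and loss of either gene leaves platelets without normal dense granules. Hps1 lay at 10.33, 10.25 and 10.21 in the wild-type and at 10.53, 10.51 and 10.40 in the knockout. Its groups were apart by the narrow step from wild-type replicate 1 to knockout replicate 3, and the difference was 0.22 (SE 0.13, 95% interval -0.08 to 0.52, adjusted p = 0.45). Hps4 lay at 9.31, 8.84 and 8.84 in the wild-type and at 9.34, 9.49 and 9.36 in the knockout. Wild-type replicate 1 sat just under the knockout arrays, and the other wild-type arrays were lower together. The difference of 0.40 (SE 0.17, 1.32-fold, adjusted p = 0.36) was 0.08 without those 2 arrays (adjusted p = 1.00). Rab32 and Rab38, named as the known targets of BLOC-3 after values were seen, stood at differences of 0.06 (SE 0.14) and -0.15 (SE 0.13).

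Slc35d3 encodes a transporter-like protein of intracellular membranes, and mice that lack it have too few dense granules. Its probe lay at 12.23, 12.14 and 12.19 in the wild-type and at 12.14, 11.93 and 12.30 in the knockout. The knockout arrays enclosed the wild-type ones, with knockout replicate 2 lowest and knockout replicate 3 highest of all 6. It was the only one of the 8 genes with a lower mean in the knockout (difference -0.06, SE 0.15, 95% interval -0.40 to 0.28, adjusted p = 0.86), and without knockout replicate 2 its difference was 0.03, so that all 8 means were higher.

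Among the release genes, Stxbp2 differed by the widest margin relative to its spread. Stxbp2 (Munc18-2) holds the SNARE protein syntaxin 11 in platelets and is faulty in a form of familial hemophagocytic lymphohistiocytosis. It lay at 12.98, 12.95 and 12.99 in the wild-type and at 13.46, 13.43 and 13.34 in the knockout. Each group was tight and the gap between them exceeded the range of either. The difference was 0.44 (SE 0.13, 95% interval 0.15 to 0.73, 1.36-fold), with an unadjusted p of 0.0088 and an adjusted p of 0.32. It was 0.41 to 0.47 with any 1 array left out and 0.43 without wild-type replicates 2 and 3, with adjusted p from 0.019 to 1.00 over all alternatives.

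Stx11, which encodes syntaxin 11 and was looked up for that reason after values were seen, stood at a difference of 0.25 (SE 0.16, adjusted p = 0.49), with overlapping groups, and at 0.03 with wild-type replicates 2 and 3 left out. Snap23, the SNAP protein of platelet granule release, was the SNARE gene of smallest p. It lay at 10.41, 10.39 and 10.17 in the wild-type and at 10.79, 10.84 and 10.73 in the knockout. As for Stxbp2 the groups did not overlap, and the difference was 0.46 (SE 0.14, 1.37-fold, adjusted p = 0.32).

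Vamp8 is the main SNARE on platelet granules in mice. Its brighter probe lay at 12.60, 12.59 and 12.70 in the wild-type and at 12.75, 12.80 and 12.54 in the knockout. The dimmer probe lay at 11.52, 11.63 and 12.03 in the wild-type and at 11.72, 11.54 and 11.31 in the knockout. On both probes the groups overlapped, and the means lay in opposite directions: the differences were 0.07 (SE 0.14, 95% interval -0.25 to 0.39, adjusted p = 0.84) and -0.20 (SE 0.19, adjusted p = 0.63). The interval of the brighter probe holds no change as well as an upward shift of 0.39.

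Unc13d (Munc13-4), which primes granules through Rab27, had no named probe. Its known Rab partners were on the array. Rab27a, among the genes of smallest p in its list, lay at 11.57, 11.76 and 11.74 in the wild-type and at 11.26, 11.30 and 11.17 in the knockout. It was lower on every knockout array, with a difference of -0.45 (SE 0.13, adjusted p = 0.32). Rab27b, named here after values were seen, lay at 10.69, 9.74 and 9.69 in the wild-type and at 10.47, 10.46 and 10.69 in the knockout. Its difference was 0.50 (SE 0.27, adjusted p = 0.42), with wild-type replicate 1 among the knockout values. Rab27b passed without wild-type replicate 1 (difference 0.82, adjusted p = 0.027), but its difference was -0.15 with wild-type replicates 2 and 3 left out.

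Plek encodes pleckstrin, the chief substrate of protein kinase C in platelets. It lay at 12.62, 11.86 and 12.18 in the wild-type and at 12.34, 12.46 and 12.61 in the knockout. Wild-type replicate 1 was as high as the highest knockout array, and the other wild-type arrays were the lowest of all. The difference was 0.25 (SE 0.21, adjusted p = 0.58), and it became -0.14 when wild-type replicates 2 and 3 were left out. Prkca, which encodes protein kinase C alpha, was among the signalling genes of smallest p. It lay at 10.36, 9.96 and 9.63 in the wild-type and at 10.37, 10.69 and 10.70 in the knockout. The difference of Prkca was 0.60 (SE 0.21, adjusted p = 0.33), and it was 0.23 with wild-type replicates 2 and 3 left out.

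**Figure D2:**
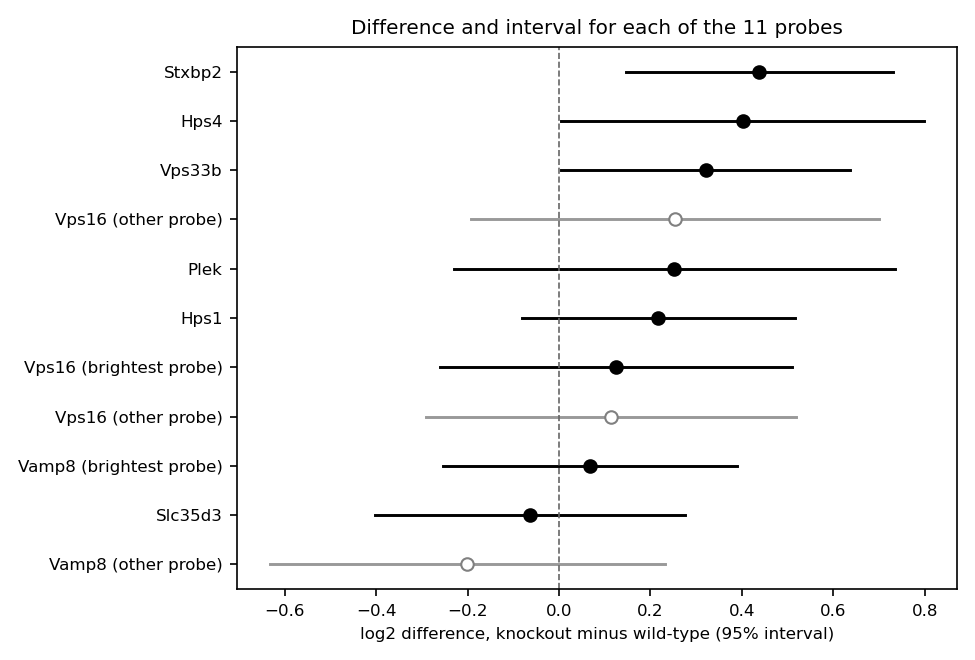
Log2 difference, knockout minus wild-type (x axis), of the 11 probes of the 8 genes, with 95% intervals from the limma fit. Filled points are the brightest probe of a gene and open points its other probes. The intervals of Stxbp2, Hps4 and Vps33b lie above 0 before adjustment for the number of probes, and the dimmer Vamp8 probe is the lowest of the 11.

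Each value rested on 16 to 63 beads, and the standard error over the beads was 2.89% to 14.6% of the raw intensity. For 10 of the 11 probes that error was highest on knockout replicate 1. For 4 of the 8 genes (Vps33b, Vps16, Hps4 and Plek) the SD was larger among wild-type than among knockout arrays. All 8 genes lay below their own 6-array mean on wild-type replicate 2 and 6 of 8 did on replicate 3, while 4 of 8 did on wild-type replicate 1. That mean spans both groups, so a gene higher in the knockout tends to lie below it on wild-type arrays and above it on knockout arrays. Such counts thus repeat in part the differences given above. Wild-type replicates 2 and 3 are the arrays where the mast cell and granulocyte lists were high, and a link to them was not tested. Granulocyte transcripts were also high on knockout replicate 1. There 5 of the 8 genes lay above their mean, compared with 7 of 8 on each of knockout replicates 2 and 3. The others on knockout replicate 1 lay almost at their mean, with deviations of -0.003 (Vps16), -0.013 (Slc35d3) and -0.006 (Plek), so the counts overstate the contrast.

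Leaving the pair of arrays out separated the genes. Stxbp2 (0.43) and Vps33b (0.30) kept nearly the whole difference and Hps1 (0.15) most of it. Hps4 came to 0.08, Vps16 went from 0.12 to -0.15 and Plek from 0.25 to -0.14. None of these differences passed, and with the wild-type reduced to 1 array its spread was taken from the knockout group.

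**Figure D3:**
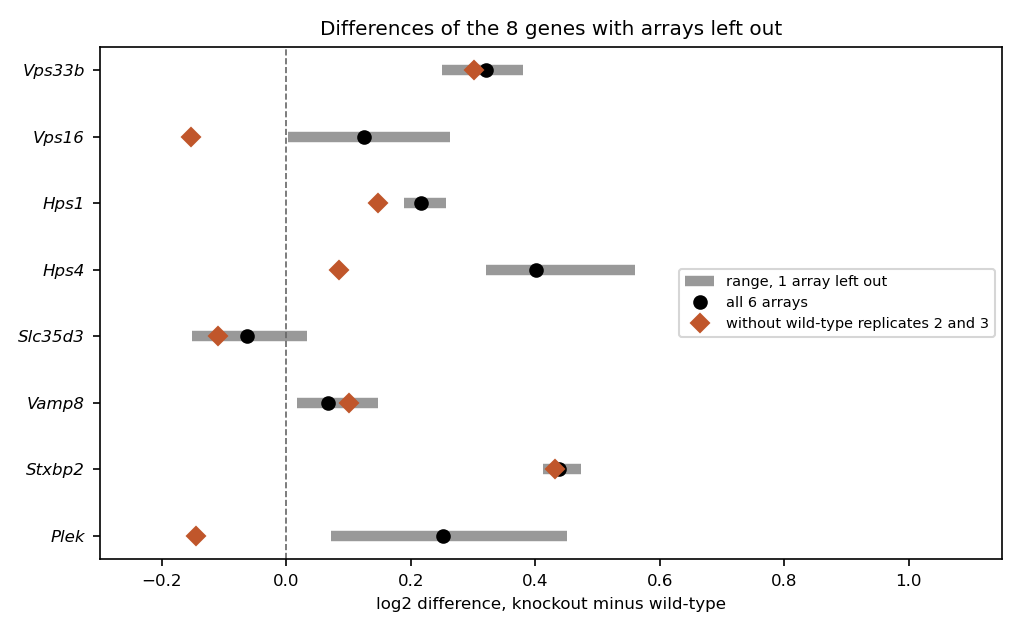
Log2 difference, knockout minus wild-type (x axis), for the 8 genes with all 6 arrays (black points), the range with any 1 array left out (grey bars) and the value without wild-type replicates 2 and 3 (diamonds). Stxbp2 and Vps33b hold their place, Hps4 moves to 0.08, and Vps16 and Plek cross 0.

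Upstream sequence is shown for the genes that hold a motif in the 250 bases before their start, because the deleted factor, SRF, binds DNA at the CArG box. RefSeq promoter windows (GRCm38.p6) were matched for 8 of the 10 genes, 9 windows in all; Vps33b and Unc13d were not matched. A CArG box was searched for as CCWWWWWWGG, with W for A or T, and near matches were not counted. None of the 8 genes held a CArG box on either strand, against 1.62% of all 27025 genes with a window. With so low a share, none among 8 genes says little about them. The window of Srf itself held 2 CArG boxes, which are in capitals here to show what was searched for. The hexamer CACGTG, which reads the same on both strands and is the core of E-boxes bound by factors such as USF1 and TFEB, was noticed after the sequences were read. Because it was picked from these same windows, its share among the genes cannot be read as enrichment. Vps16 and Stxbp2 held CACGTG, 2 of 8 genes against 6.86% of all genes. In their sequences capitals mark CACGTG, and its first base lies 18 bases before the start in Vps16 and 14 in Stxbp2.
Stxbp2, chr8:3630859-3631108, plus strand: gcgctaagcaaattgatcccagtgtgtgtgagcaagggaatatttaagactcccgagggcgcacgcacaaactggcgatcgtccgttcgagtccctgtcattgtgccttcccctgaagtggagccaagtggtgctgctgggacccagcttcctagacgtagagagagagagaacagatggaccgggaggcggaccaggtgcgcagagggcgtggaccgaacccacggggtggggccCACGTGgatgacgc
Vps16, chr2:130424070-130424319, plus strand: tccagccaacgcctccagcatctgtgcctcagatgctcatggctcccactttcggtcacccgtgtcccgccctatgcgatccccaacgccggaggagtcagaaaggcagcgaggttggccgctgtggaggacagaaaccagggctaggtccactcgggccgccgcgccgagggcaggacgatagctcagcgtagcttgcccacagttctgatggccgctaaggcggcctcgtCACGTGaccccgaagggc
Srf, chr17:46556163-46556412, minus strand: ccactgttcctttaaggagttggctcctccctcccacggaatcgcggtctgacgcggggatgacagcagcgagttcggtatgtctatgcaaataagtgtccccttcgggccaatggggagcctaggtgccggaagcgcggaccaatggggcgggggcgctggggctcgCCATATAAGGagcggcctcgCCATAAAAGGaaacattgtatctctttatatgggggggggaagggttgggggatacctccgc
Both genes with CACGTG are among those described above: Stxbp2 had the largest difference among the 8 genes (0.44), and Vps16 lay at 0.12 with overlapping groups. A match describes letters in the window and says nothing of binding in these cells.

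The other genes of granule formation and release were taken from 7 lists of 119 genes, of which 99 had a named probe and 76 were tested. None passed the test (0 of 76 higher and 0 of 76 lower, limma), and 11 had an unadjusted p under 0.05, 7 higher and 4 lower, against 6.59% and 6.26% of all genes. The median difference was 0.03 with 42 genes higher and 34 lower. It was -0.01 with scaling to the 75th percentile, by which 35 of 76 were higher. Every knockout array lay above the wild-type for 11 of the 76 and below for 7, against 8.69% and 9.46% of all genes.

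By list, 5 of 7 tethering genes were higher by mean (median 0.10), with Vps33a (0.54) and Rbsn, which encodes the Rab effector rabenosyn-5 (0.24, SE 0.13), at the smallest p. Sorting genes of the BLOC and AP-3 complexes were spread evenly, 8 of 17 higher (median -0.07). Ap3s1, a subunit of AP-3, lay at 11.74, 11.97 and 12.15 in the wild-type and at 11.67, 11.52 and 11.47 in the knockout (difference -0.40, SE 0.16, adjusted p = 0.35), and stood at -0.18 with wild-type replicates 2 and 3 left out. Rabggtb, a subunit of the enzyme that attaches lipid to Rab proteins, stood at 0.33 (SE 0.16). Of the BEACH proteins, the family of Nbeal2, 2 were tested: Nsmaf at -0.22 (SE 0.13) and Lrba at 0.16 (SE 0.22). With the same 2 arrays left out, Rbsn stood at 0.14, Rabggtb at 0.20, Nsmaf at -0.08 and Lrba at 0.40.

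Genes of the dense granule membrane stood at a median of 0.06, 4 of 7 higher. Atp6v0a1, a subunit of the proton pump that acidifies granules, stood at 0.50 (SE 0.21, adjusted p = 0.36) but at 0.05 without wild-type replicates 2 and 3. Abcc4, a nucleotide transporter of platelets, stood at 0.28 (SE 0.13), with the groups apart. Of 21 SNARE genes 11 were higher (median 0.02), led by Snap23 and by Snap47 (0.53, SE 0.22, adjusted p = 0.35), whose difference was 1.00 without wild-type replicates 2 and 3.

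Munc18, Munc13 and Rab27 genes had a median of 0.00, 4 of 7 higher. Beside Rab27a, Doc2a, a calcium sensor of exocytosis, stood at -0.57 (SE 0.21, adjusted p = 0.33) and at -0.10 without wild-type replicates 2 and 3. Without wild-type replicate 1 it passed (-0.80, adjusted p = 0.025). Signalling genes had a median of 0.05, 9 of 15 higher, with Prkca above and Plcb3, a phospholipase C, at -0.61 (SE 0.20, adjusted p = 0.33). Plcb3 lay at 8.67, 8.19 and 8.63 in the wild-type and at 7.56, 8.04 and 8.06 in the knockout, lower on every knockout array.

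**Figure D4:**
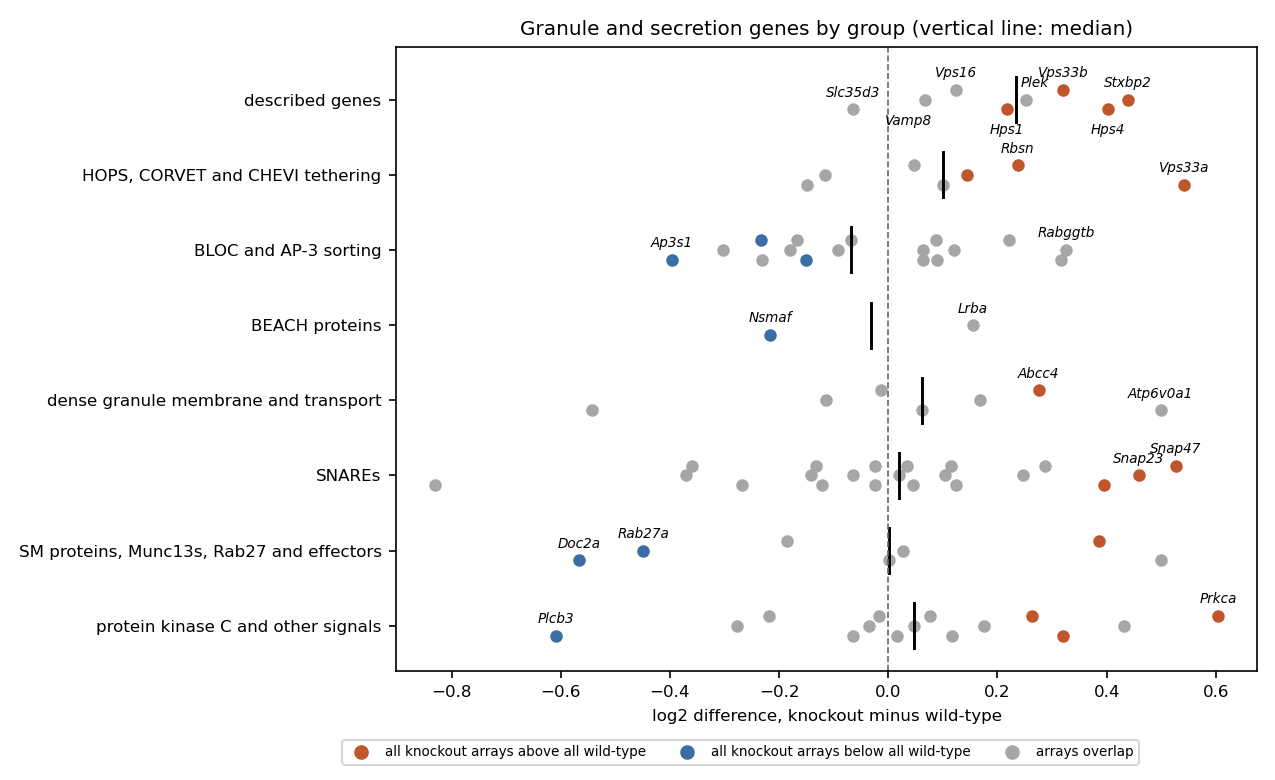
Log2 difference, knockout minus wild-type (x axis), for the 8 described genes and 76 further genes of granule formation and release, 1 point per gene by its brightest tested probe, with a vertical line at each group's median. Colours mark genes whose arrays stand apart upward, apart downward or overlap. The 8 genes have a median of 0.23 and the 7 lists medians of -0.07 to 0.10, and no point passed the test.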

How the data were processed

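The 6 samples, 3 SRF wild-type and 3 SRF knockout, were each run on 1 Illumina mouse bead array. The deposited table of unnormalized data holds, per the file headers, 4 columns an array: linear intensity, bead standard error, bead number and detection p-value. The authors' processed values are log2-like and quantile normalized as far as the values show (each column has a median of 8.22), and their transform is not given in the sources used here. BeadStudio 3.2 and lumi are named in the submitters' processing notes, with no role.

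In R 4.3.3 with limma 3.58.1, intensities went through neqc (normexp using control levels inferred from detection p-values, an offset of 16, quantile normalization, log2), which shrinks differences of dim probes. The test covered the 9403 of 24611 probes whose detection p was under 0.05 throughout the wild-type or throughout the knockout arrays. The two-sided genotype contrast came from limma (lmFit, eBayes), and p-values were adjusted over these probes by Benjamini-Hochberg, with a threshold of 0.05. The procedure was tested on simulated data. A gene is given by its tested probe of highest mean, and symbols are those of the platform annotation. Named genes were the 10 genes, Srf, and from each list the 2 of smallest p, plus known partners named as chosen later. Marker sums add background-corrected intensities, 1 probe a gene. Arrays have no read depth, and their number, 3 a group, limits the precision.

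The 10 genes and the lists were chosen with earlier results of these data known. Alternatives were another background correction (normexp at offset 50) or none, 75th percentile scaling, the authors' processed values, no filter, detection p under 0.01, array weights, the replicate number as a block, each array left out, and both wild-type arrays rich in mast cell transcripts left out, the last added after seeing the data.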

Additional observations from a re-analysis of the deposited data

How the results depend on the processing

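The count of 0 changed among the 8 genes (limma, 3 at an unadjusted p under 0.05) was also 0 under every alternative other than array weights. With all 11 probes counted, done for the unweighted fit of all 6 arrays alone, it was 0 as well. With array weights 3 of 8 passed, all higher: Stxbp2 (0.45, adjusted p = 0.019), Hps4 (0.56, adjusted p = 0.018) and Plek (0.57, adjusted p = 0.037). That setting called 20.8% of all tested probes, 1955 against 15 in the unweighted fit, and 17 of the 76 further granule genes. Without 1 array, 7 to 639 probes changed over the whole table, and 0 to 5 of the 76. The 639 and the 5 (Atp6v0a1, Stx3, Rab27b, Doc2a and Prkca) came without wild-type replicate 1, and the cause was not tested. With no filter 9 probes changed, over the 24611 tested there. Wild-type and knockout samples with the same number correlated in their deviations from the group mean at -0.27, -0.13 and -0.09. Samples with unlike numbers correlated at -0.16 to 0.22. These deviations also hold the differences in marker lists within each group, so they cannot tell whether samples of the same number were prepared together. With the replicate number as a block 6 probes changed, and 0 of the 8 genes and 0 of the 76. By the brightest probe of each gene, Stxbp2, Hps4, Vps33b, Hps1 and Vamp8 had a higher knockout mean under all 15 alternatives. The dimmer Vamp8 probe, at -0.20 in the unweighted fit of all 6 arrays, was not followed through them. Plek and Vps16 turned negative only without wild-type replicates 2 and 3, and Slc35d3 turned positive without knockout replicate 2 (0.03). At an unadjusted p under 0.05, percentile scaling and the block each left Stxbp2 alone. The authors' processed values gave 4 genes (Stxbp2, Hps4, Vps33b and Hps1), and array weights gave 4 without Vps33b (Stxbp2, Hps4, Plek and Hps1). With 3 arrays a group, an interval half-width of 0.29 to 0.48 limits what could be seen for these genes.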
